A study of Mus musculus with 60 samples.

Results

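The regions described here are the places in hippocampal neurons where a peak of H4K8ac lay on a peak of H3K27me3. An H4K8ac peak was a member if it shared at least 1 bp with an H3K27me3 peak from the same condition and the same isolation. Members were thus chosen by peak positions alone, and the share that overlaps is a description of that choice. Of 155961 H4K8ac peaks in all lists, 589 met this rule (0.378%). Nuclei were taken from hippocampi of male Emx1-NuTRAP mice, in which Emx1-Cre turns on a nuclear tag and a ribosome tag. Exercised mice had free access to a running wheel from postnatal day 21 to 41, and sedentary mice lived in cages without a wheel over the same days. Nuclei came either from both hippocampi of a mouse by simultaneous isolation of nuclei and translating RNA (SIT), or from the left or the right hippocampus alone by separate isolation. All mice carried the same 2 transgenes, and none lacked them. Emx1-Cre acts mainly in excitatory neurons, yet also in neural progenitors, so the tag does not mark a single neuron type.

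H4K8ac and H3K27me3 were profiled by CUT&RUN, in which an antibody guides a nuclease to cut out the DNA around a histone mark. The 40 libraries of these marks fell into 12 groups (4 libraries per SIT group, 3 per separate group), and each group was given as 1 pooled peak list. An H4K8ac list and the H3K27me3 list of the same condition and isolation are called a list pair here, and there were 6 list pairs. The lists hold positions without read counts or signal, so the depth behind them is unknown. By the methods, the authors left out 3 exercised H4K8ac libraries of separate isolation and 1 of SIT. The exercised H4K8ac lists may thus combine fewer libraries than their groups hold. The exercised left and right lists were short, with 12168 and 13715 H4K8ac peaks against 25159 to 38136 in the other lists.

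Acetylation of histone H4 at lysine 8 is laid down by acetyltransferases at active promoters and enhancers. Trimethylation of histone H3 at lysine 27 is laid down by Polycomb repressive complex 2 and covers silent developmental genes, often in broad domains. The marks sit on different histones, so 1 nucleosome can in principle carry both, whereas in a bulk sample an overlap can also come from different cells, from different alleles or from neighbouring nucleosomes. These sources cannot be told apart in pooled peak lists. As a check of the labels, promoters of 3 to 6 of 10 neuronal reference genes carried H4K8ac in each list and none carried H3K27me3. Of the 39 Hox genes, none had an H4K8ac peak at the promoter, and 1 to 18 had an H3K27me3 peak there. The start sites of 30 to 39 of the 39 Hox genes lay in H3K27me3. Promoter H4K8ac was also assigned to up to 4 of 22 interneuron markers and 2 to 6 of 12 astrocyte markers. The counts were 2 to 3 of 13 oligodendrocyte lineage, 1 to 2 of 12 microglial and up to 1 of 10 endothelial markers. Their part in the overlaps was not tested.

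The 7 sequences below are examples of overlaps shared by 2 or more list pairs, chosen after their values were seen, with every CpG in capitals, since CpG content is among the measures compared between members and other H4K8ac peaks. They come from GRCm38, the build of the lists, and each is a stretch of at most 200 bases from the middle of the overlap shared between list pairs. Acad9 is the place found most often, and its stretch is intergenic, before the gene start. Pdyn is shown as the 200 bases just before its annotated start site, which lay inside the overlap in 2 list pairs. The stretches at Zfp536 and Cradd are intronic. Those assigned to Tapt1, 4931429L15Rik and Prox1 are intergenic.
Acad9 (chr3:36064637-36064836, plus strand): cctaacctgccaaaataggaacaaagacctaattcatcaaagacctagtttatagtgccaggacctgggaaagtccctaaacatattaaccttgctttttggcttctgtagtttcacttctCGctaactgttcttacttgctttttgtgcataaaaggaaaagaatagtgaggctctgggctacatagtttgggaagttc
Pdyn (chr2:129699845-129700044, minus strand): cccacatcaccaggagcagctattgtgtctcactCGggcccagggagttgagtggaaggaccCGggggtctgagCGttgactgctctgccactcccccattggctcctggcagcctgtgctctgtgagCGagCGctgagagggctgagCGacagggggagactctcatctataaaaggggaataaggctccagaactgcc
Zfp536 (chr7:37565146-37565345, plus strand): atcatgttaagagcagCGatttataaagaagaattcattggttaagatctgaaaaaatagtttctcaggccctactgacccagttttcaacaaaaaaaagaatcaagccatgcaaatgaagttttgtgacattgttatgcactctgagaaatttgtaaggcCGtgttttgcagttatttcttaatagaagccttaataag
Cradd (chr10:95265967-95266166, plus strand): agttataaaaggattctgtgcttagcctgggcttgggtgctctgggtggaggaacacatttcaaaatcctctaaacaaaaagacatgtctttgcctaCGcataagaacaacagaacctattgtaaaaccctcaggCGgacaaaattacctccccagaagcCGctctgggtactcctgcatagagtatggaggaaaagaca
Tapt1 (chr5:44304680-44304879, plus strand): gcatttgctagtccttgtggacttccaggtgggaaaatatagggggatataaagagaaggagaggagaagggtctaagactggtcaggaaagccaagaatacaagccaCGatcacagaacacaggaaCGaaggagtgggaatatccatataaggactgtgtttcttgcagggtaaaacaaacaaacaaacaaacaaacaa
4931429L15Rik (chr9:46443426-46443625, plus strand): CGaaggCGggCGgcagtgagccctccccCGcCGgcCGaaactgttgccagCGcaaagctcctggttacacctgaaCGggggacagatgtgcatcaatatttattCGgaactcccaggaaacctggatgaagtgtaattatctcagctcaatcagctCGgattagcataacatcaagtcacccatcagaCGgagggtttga
Prox1 (chr1:190274869-190275068, plus strand): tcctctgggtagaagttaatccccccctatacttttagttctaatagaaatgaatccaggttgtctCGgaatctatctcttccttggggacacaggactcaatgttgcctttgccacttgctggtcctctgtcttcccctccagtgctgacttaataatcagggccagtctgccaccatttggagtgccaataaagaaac

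These 7 stretches differ widely in CpG content. The stretch assigned to 4931429L15Rik held 11 CpGs and that of Pdyn 6, whereas those of Acad9 and Prox1 held 1 each. Zfp536 and Tapt1 had 2, and Cradd had 3. Repeat-masked bases made up 27% of the Acad9 stretch, 30% of that at Tapt1 and none of those at Pdyn, Cradd, 4931429L15Rik and Prox1. Of the stretches not printed, those of Mff (96 bp), Mpzl3 (62 bp) and Mir124-2hg (18 bp) held no CpG, and that of Shmt2 held 10 in 164 bp.

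The overlap was rare in every list pair. The lists hold only peaks that passed the authors' stringent cut, and how the share depends on that cut could not be tested. In exercised SIT, 267 of 38136 H4K8ac peaks were members (0.700%, Wilson 95% interval 0.621 to 0.789), and in sedentary SIT 77 of 30358 (0.254%, 0.203 to 0.317). In the left hippocampus, 17 of 12168 exercised peaks (0.140%, 0.0873 to 0.224) and 83 of 36425 sedentary peaks (0.228%, 0.184 to 0.282) were members. In the right hippocampus, the counts were 16 of 13715 exercised peaks (0.117%, 0.0718 to 0.189) and 129 of 25159 sedentary peaks (0.513%, 0.432 to 0.609). The intervals cover counting error alone. Read from the other mark, between 0.0876 and 1.0% of H3K27me3 peaks were overlapped, lowest in exercised left and highest in exercised SIT.

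**Figure D1:**
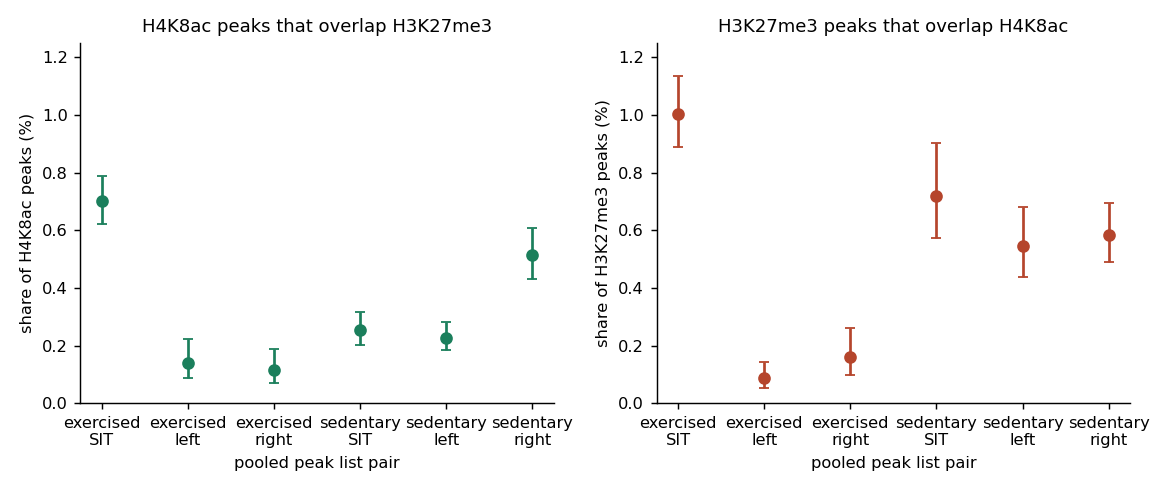
Share of H4K8ac peaks that overlap H3K27me3 (left panel) and of H3K27me3 peaks that overlap H4K8ac (right panel) in percent, for each of the 6 pooled list pairs. Points are shares and bars are Wilson 95% intervals. Exercised SIT is highest in both panels, and the exercised left and right list pairs are lowest.

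Whether exercise went with more or fewer overlaps was asked within each isolation. The exercised share was higher than the sedentary share by 0.446 percentage points in SIT, whereas the difference was -0.0882 points in the left hippocampus and -0.396 points in the right. The mean difference was -0.0126 ± 0.426 percentage points (SD, n = 3 isolations). No p is given for it, since the share is what the rule itself measures and a sign-flip test over 3 isolations cannot go below 0.25. The share also differed with the H3K27me3 list that was used. Against the exercised SIT H3K27me3 list, which covered 4.97% of the assembled chromosomes, sedentary SIT H4K8ac peaks overlapped in 0.642% of cases, close to the 0.700% of exercised SIT peaks. Against the same list the shares were 0.288% for exercised left, 0.510% for exercised right, 0.513% for sedentary left and 0.616% for sedentary right. It gave the highest share for each H4K8ac list, tied with the sedentary right list for exercised left, and the other H3K27me3 lists covered 1.51 to 4.2% of the chromosomes.

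H4K8ac peaks were scarce inside H3K27me3 and also along its borders. In exercised SIT, 2.94% of the genome lay under H4K8ac, against 0.246% of the bases 1500 to 2000 bp inside an H3K27me3 peak and 0.312% of the first 500 bp inside the edge. Just outside the edge the cover was 0.383%, at 1000 to 1500 bp it was 0.753%, and at 9500 to 10000 bp it was 1.75%. The cover had this order over these 5 distances in each of the 6 list pairs, though not at every distance between them. In exercised right it went from 0.0150% through 0.0435, 0.0966 and 0.211 to 0.323%, and in sedentary right from 0.145% through 0.220, 0.270 and 0.483 to 1.01%. In exercised right it was highest at 5000 to 5500 bp (0.415%) and 0.241% at 8000 to 8500 bp. At 9500 to 10000 bp the cover was still below that of the genome as a whole in these list pairs (2.94% in exercised SIT, 0.899% in exercised right and 2.06% in sedentary right). Since overlap is what chose the members, these profiles are a description and were not tested.

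**Figure D2:**
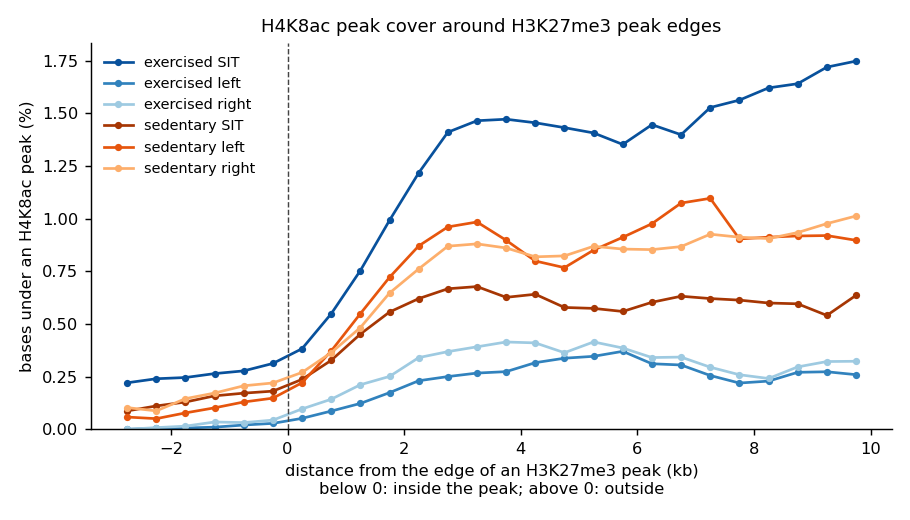
Percent of bases under an H4K8ac peak (y axis) by distance from the nearest edge of an H3K27me3 peak in kb (x axis, below 0 inside the peak), in steps of 500 bp for the 6 list pairs. In each list pair the cover in the 3 kb inside the edge is below that in the first 500 bp outside. In exercised SIT it goes from 0.383% in the first 500 bp outside the edge to 1.75% at 9500 to 10000 bp.

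Members took up 3 kinds of position. Among the 598 contacts of an H4K8ac peak with an H3K27me3 peak, 369 (61.7%) were at an edge, where the peaks overlapped in part. A further 220 (36.8%) were H4K8ac peaks lying wholly inside an H3K27me3 peak, and 9 were H4K8ac peaks that spanned an H3K27me3 peak. The share inside was 50.6% in sedentary SIT (39 of 77) and 40% in exercised SIT (108 of 270), but 33.7% in sedentary left, 28.1% in sedentary right, 23.5% in exercised left (4 of 17) and 18.8% in exercised right (3 of 16). The Wilson intervals of the smallest sets, 9.56 to 47.3% and 6.59 to 43.0%, span most of the others. H4K8ac peaks inside lay a median of 661 to 1900 bp from the nearer border of their H3K27me3 peak. No member lay on chromosome X among its 443 H4K8ac peaks of all lists together. By the rule of 3 (3 divided by 443) a one-sided 95% bound on the share there is 0.677%, if peaks are taken as independent. The X chromosome also held no more than 136 H3K27me3 peaks in a list.

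Overlaps were short next to the domains they touched. The median overlap was 1044 bp in exercised SIT, 1010 bp in sedentary SIT, 859 bp in sedentary left and 1219 bp in sedentary right, against 546 bp in exercised left and 344 bp in exercised right. The median was 1365 bp for contacts inside and 619 bp for those at an edge, and 33 contacts were under 100 bp. The H3K27me3 partners had median widths of 3776 to 6692 bp, compared with 2859 to 4371 bp for the other H3K27me3 peaks, and were wider in each list pair. Wider peaks have more bases to be overlapped, so this is no result about the partners. Just inside the 1 bp rule were members such as Zfp105 in sedentary left (6 bp), Slc26a7 in exercised SIT (9 bp) and the shortest of the Mir124-2hg contacts in exercised left (19 bp). Just outside it were H4K8ac peaks at Adamts12 in exercised SIT and Serpinb8 in sedentary right, which abutted an H3K27me3 peak with a gap of 0 bp, and at Fastkd2 in sedentary left (3 bp). Within 1000 bp, but not touching, were 178 further H4K8ac peaks in exercised SIT and 19 to 98 in the other list pairs.

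**Figure D3:**
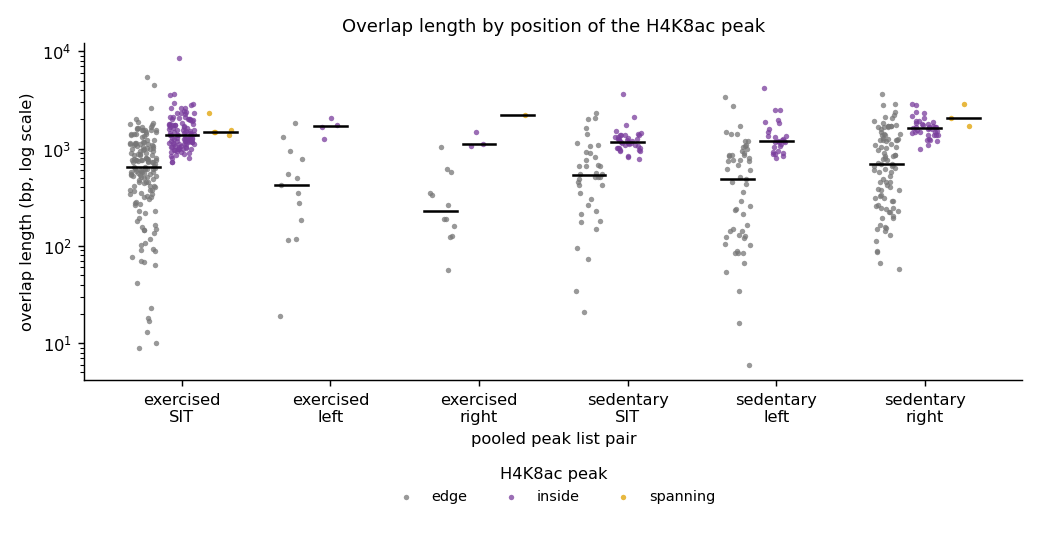
Overlap length in bp (y axis, log scale) of each contact in the 6 list pairs, split into H4K8ac peaks at an edge of H3K27me3, inside it, or spanning it. Points are contacts and black lines are medians. Over all list pairs the median is 1365 bp inside and 619 bp at an edge, where overlaps go down to 6 bp.

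Promoters made up more of the members than of the other H4K8ac peaks. A promoter was a position within 3 kb of an annotated start site. In exercised SIT 36.7% of members and 24.1% of other peaks were at promoters, in exercised left 52.9 and 25.2%, and in exercised right 62.5 and 26.5%. The shares were 44.2 and 19.2% in sedentary SIT, 45.8 and 24.3% in sedentary left, and 46.5 and 24.0% in sedentary right. The difference was 24.2 ± 7.71 percentage points (SD, n = 6 list pairs), and members were higher in 6 of 6 (exact two-sided sign-flip permutation test, p = 0.03125, the smallest that 6 list pairs allow). After Benjamini-Hochberg adjustment over 5 such tests p was 0.0521, which misses the threshold of 0.05. Annotation is read from the same peak positions that the rule used, so the p is no independent support. The promoter share to be had wherever lists of these marks meet was not computed. With members that had at least 50% of their length in H3K27me3 the difference was 11.3 percentage points (exact sign-flip test, adjusted p = 0.0781).

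The H3K27me3 partners leaned to promoters as well. Between 41.1 and 68.8% of overlapped H3K27me3 peaks were at promoters, against 17.6 to 25.3% of those not overlapped, a difference of 31.8 ± 7.96 percentage points that was positive in 6 of 6 list pairs (exact sign-flip test, p = 0.03125, adjusted p = 0.0521). This value is not independent of the one before, since partners share bases with members and were wider than other H3K27me3 peaks, and widths were not matched. Where at least 50% of the H4K8ac peak had to be covered it was 18.0 points (exact sign-flip test, adjusted p = 0.0781). Distal intergenic positions did not separate the sets. They held 25 to 36.7% of members and 25.9 to 31.0% of other H4K8ac peaks, with members higher in 4 of 6 list pairs (difference 3.33 ± 5.08 points, adjusted p = 0.188 in the exact sign-flip test). Introns held 11.8 to 23.3% of members and 34.7 to 40.1% of the other peaks, a difference given here without a test.

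Members were richer in CpG. The ratio of observed to expected CpG, which is low in most of the mammalian genome and high in CpG islands, had a median of 0.347 to 0.444 in members and 0.212 to 0.233 in other H4K8ac peaks. The difference was 0.151 ± 0.0300 (n = 6) and was positive in all 6 list pairs (exact sign-flip permutation test, p = 0.03125, adjusted p = 0.0521). When only the overlapped bases of each member were measured, the difference was 0.0435 (exact sign-flip test, adjusted p = 0.219). The rule chose members for lying on H3K27me3, and they were more often at promoters. The part of either in the CpG difference was not tested, and the ratio of other H3K27me3 peaks is not given here. GC content differed little, with medians of 44.0 to 47.1% in members and 42.9 to 44.9% in others, and repeat-masked bases had medians of 12 to 14.8% and 14.8 to 16.2%.

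In most edge contacts at promoters, the overlapped end faced away from the gene body. Of 174 contacts at an edge whose H4K8ac peak was at a promoter, H3K27me3 lay on the upstream side of the peak in 125 and on the downstream side in 49. The upstream side was the more frequent in each list pair, for example 44 of 63 in exercised SIT and 24 of 28 in sedentary left. These counts are a description, since several contacts share a gene between list pairs and so count the same place more than once. No count per place is given, and the side of H3K27me3 at other promoter peaks was not looked up.

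Acad9 was the 1 place found in all 6 list pairs. It encodes an acyl-CoA dehydrogenase family member needed to assemble respiratory complex I. The overlap was 769 bp in exercised SIT, 546 bp in exercised left, 622 bp in exercised right, 550 bp in sedentary SIT, 749 bp in sedentary left and 679 bp in sedentary right. No base was overlapped in all 6, and the longest stretch overlapped in 5 was 206 bp. The H4K8ac peak was at the promoter and at an edge each time. The H3K27me3 partner reached over the upstream neighbour Ccdc144b as a peak of 16124 to 16708 bp in 4 list pairs, and was 4794 and 3036 bp wide in exercised SIT and exercised right. Its downstream border lay between 36064839 and 36065694 on chromosome 3, before the Acad9 gene start at 36065979.

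The same arrangement, a promoter H4K8ac peak whose upstream end ran into an H3K27me3 peak, was seen at 4 further places found in 4 list pairs. At Mff, which encodes a receptor for the mitochondrial fission protein DRP1, the H3K27me3 peak was assigned to the neighbour Col4a3, a basement membrane collagen, and was 10028 to 10442 bp wide, with overlaps of 422 to 845 bp. At Mpzl3, the partner was assigned to the neighbouring paralogue Mpzl2 in 3 of the 4 list pairs, where it was 21236 to 29957 bp wide, and the overlaps were 190 to 869 bp. Rhbdd1, a rhomboid protease gene, had overlaps of 191 to 451 bp. Stpg2 had overlaps of 407 to 1264 bp, and in exercised right, where that place was not overlapped, 335 bp on the downstream side. All of these lay upstream except that last one. The place at 4930592C13Rik, an antisense RNA, was the reverse case, with H3K27me3 on the downstream side in 4 of 4 list pairs and overlaps of 151 to 1346 bp. At Gm21119 the 4 overlaps of 124 to 773 bp were distal. That name and the 43 members assigned to Gm-numbered gene models include multicopy families, where reads of near-identical copies cannot be placed with certainty.

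**Figure D4:**
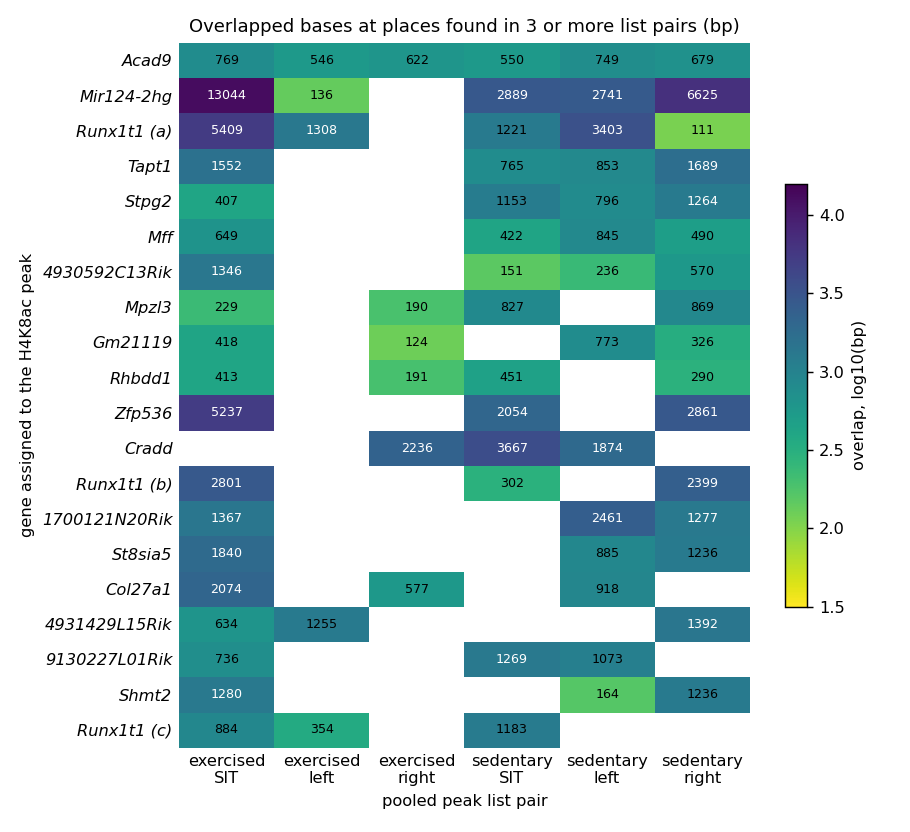
Overlapped bases in bp at the 20 places named by the rule (rows, by the gene assigned to the H4K8ac peak) in the 6 list pairs (columns). Colour is log10 of the overlap and blank cells had no overlap, with the 3 Runx1t1 places marked a to c. Acad9 has a value in all 6 columns, and the exercised left and right columns are the emptiest.

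Places seldom recurred between list pairs. After touching overlaps were merged, there were 475 places, of which 401 (84.4%) were found in 1 list pair, 53 in 2, 11 in 3, 7 in 4, 2 in 5 and 1 in 6. Of these, 60 were found in both conditions, and 47 held an annotated gene start. All 21 places in 3 or more list pairs were found in both conditions. Whether the rest are particular to a condition cannot be read from this, because lists differ in length.

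At the places of the members, the other list pairs showed H3K27me3 more often than H4K8ac, and often neither. Each overlapped stretch of one list pair was looked up in the 5 others, giving 30 comparisons. H3K27me3 was found more often than H4K8ac in 24 of the 30 and H4K8ac more often in 6. H3K27me3 also covered more of the genome than H4K8ac in each list pair, for example 3.39 against 0.946% in exercised left, so the count is not read as a result about the members. Of the 77 stretches of sedentary SIT, 21 were overlaps again in exercised SIT, 47 had H3K27me3 alone, 4 had H4K8ac alone and 5 had neither. Of the 270 of exercised SIT, 26 were overlaps in sedentary SIT, 70 had H3K27me3 alone, 40 had H4K8ac alone and 134 had neither. In the left hippocampus, 51 of the 83 sedentary stretches had H3K27me3 alone in the exercised lists and 3 had both marks. In the right, 10 of 135 sedentary stretches had H3K27me3 alone, 27 had H4K8ac alone and 91 had neither, beside an exercised right H3K27me3 list of 9899 peaks, the shortest of the 6.

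The H4K8ac peaks of members were found again in the same isolation of the other condition less often than other H4K8ac peaks in 5 of 6 list pairs. The shares were 28.8% of members against 44.0% of others in exercised SIT, 33.8 against 59.0% in sedentary SIT, 15.7 against 25.2% in sedentary left, 31.8 against 35.6% in sedentary right and 52.9 against 73.1% in exercised left. In exercised right they were 68.8 and 68.0%. The mean difference was -12.2 ± 9.89 percentage points (n = 6, exact sign-flip permutation test, p = 0.0625, adjusted p = 0.0781). Both conditions of an isolation use the same pair of H4K8ac lists here, so the 6 values are 3 reciprocal pairs and not independent, and the p is too small. With at least 50% of the H4K8ac peak covered, it was -26.3 points at the same adjusted p. The values also differed by position. H4K8ac peaks inside H3K27me3 were found again in 18.5% of contacts in exercised SIT, 20.5% in sedentary SIT, 21.1% in sedentary right and 0 of 28 in sedentary left, whereas those at an edge were found again in 35.7, 47.4, 35.1 and 23.6%. Both exercised separate list pairs had the same order on 3 or 4 contacts inside. H4K8ac peaks inside were also narrower in these list pairs, with medians of 1382 against 1752 bp in exercised SIT and 1183 against 1564 bp in sedentary SIT. The part of width in the difference was not tested. This split was chosen after the values were seen and was not tested.

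Runx1t1 held more members than any other gene. It encodes a transcriptional corepressor of the ETO family. There were 22 members at 13 places in 5 list pairs, 8 in exercised SIT, 6 in sedentary SIT, 4 in sedentary left, 2 in exercised left and 2 in sedentary right, and none in exercised right. The overlapped bases came to 14968 bp in exercised SIT and 1662 bp in exercised left, against 6117, 6558 and 2510 bp in sedentary SIT, left and right. Of the 22 contacts, 12 were inside H3K27me3. The most frequent place, on chromosome 4 from 13778088 to 13784150, lay within the gene, and its overlap was 5409 bp in exercised SIT, 1308 bp in exercised left, 1221 bp in sedentary SIT, 3403 bp in sedentary left and 111 bp in sedentary right. A stretch of 111 bp was overlapped in 4 of these. The map of the locus shows blocks of H3K27me3 on both sides of the start with short H4K8ac peaks between and on them. In the window from 30 kb before to 60 kb after the start there were 7 to 14 H3K27me3 peaks per list except in exercised right, which had 1, and 2 to 8 H4K8ac peaks.

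The longest overlap of all was at Mir124-2hg, the host transcript of a copy of the neuronal microRNA miR-124. In exercised SIT an H4K8ac peak of 8554 bp lay wholly inside an H3K27me3 peak of 14713 bp, and a second H4K8ac peak overlapped the same domain by 4490 bp, giving 13044 bp at this place. The place had 6625 bp of overlap in sedentary right, 2889 bp in sedentary SIT, 2741 bp in sedentary left, 136 bp in exercised left and none in exercised right. The annotated starts of Mir124-2hg and of Mir124a-2 lay within the merged place on chromosome 3 from 17784642 to 17798415. Outside exercised SIT, all contacts here were at an edge or spanning, between H3K27me3 peaks of 1727 to 4148 bp and H4K8ac peaks of 1562 to 11216 bp.

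Further long overlaps were assigned to the transcriptional regulators Zfp536, Emx2, Nr2f2 and Chd7. Zfp536, a zinc finger repressor of neuronal differentiation, had 5237 bp in exercised SIT, 2054 bp in sedentary SIT and 2861 bp in sedentary right at 1 place within the gene, with 1180 bp common to them, and a further 1622 bp elsewhere in the gene in sedentary SIT. Emx2, a homeobox gene of the hippocampal primordium, had 3 members in sedentary right, of 3670, 1100 and 662 bp, and none in the other list pairs. The files annotate all 3 as promoter, although in GENCODE the longest lies past the end of the gene and the others lie within it. Nr2f2, which encodes the nuclear receptor COUP-TFII, had an H4K8ac peak wholly inside a broad H3K27me3 peak in both SIT list pairs, 2918 bp inside one of 40211 bp in exercised SIT and 2101 bp inside one of 30157 bp in sedentary SIT. Chd7, a chromatin remodeller, had 2913 bp in sedentary right, 130773 bp from the assigned start.

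Other members among the longest of their list pair were assigned to genes of varied function. Cradd, an adaptor of apoptosis signalling, had an intronic overlap of 3667 bp in sedentary SIT, 2236 bp in exercised right and 1874 bp in sedentary left, with 1503 bp common to all 3. In sedentary left, an H4K8ac peak of 4186 bp at 2810405F15Rik lay inside an H3K27me3 peak of 13386 bp. In sedentary right, the H4K8ac peak at the promoter of Slc26a4, the anion exchanger pendrin, spanned an H3K27me3 peak of 2864 bp. Exercised left had Rps6kc1 (2091 bp), Asap1 (1855 bp) and Sprr2a3 (1746 bp), and exercised right had Tac2, the gene of neurokinin B (1477 bp), and Adarb2 (1109 bp). Sprr2a3 belongs to a cluster of near-identical genes. Tapt1, 1700121N20Rik, 4931429L15Rik and 9130227L01Rik named distal places 39326 to 122875 bp from their assigned starts, found in 3 or 4 list pairs with overlaps of 634 to 2461 bp. Col27a1, a fibrillar collagen gene, was overlapped in 3 list pairs, in exercised SIT inside an H3K27me3 peak of 112856 bp. The place assigned to Shmt2 lay in the neighbouring gene Nxph4 and was overlapped by 1280, 164 and 1236 bp in exercised SIT, sedentary left and sedentary right.

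Few overlaps covered a gene start. A start site lay in 29 of 270 overlaps in exercised SIT (10.7%), 14 of 135 in sedentary right (10.4%), 6 of 83 in sedentary left, 5 of 77 in sedentary SIT and none of 17 and 16 in exercised left and right. The neuronal genes Pdyn, Kcnc2 and Penk were picked among them after their values were seen. Pdyn, the precursor of dynorphin made by dentate granule cells, was overlapped at its start by 1771 bp in sedentary SIT and 1086 bp in sedentary left, and had no member in the exercised list pairs. Kcnc2, a Kv3 potassium channel gene of fast-spiking neurons, was overlapped by 1097 bp in sedentary SIT and 1687 bp in sedentary right. Penk, the enkephalin precursor, was overlapped by 1057 bp in exercised SIT.

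Genes with both marks far outnumbered those where the marks met. An H4K8ac peak was assigned to 13585 genes in at least 1 list, and 360 of them had a member (2.65%). In exercised SIT 2851 genes had peaks of both marks in the list pair, and 217 of these (7.61%) had a member. In the other list pairs 763 to 2007 genes had both, and 1.51 to 5.23% of them had a member. Both peaks of a contact were assigned to the same gene in 555 of 598 contacts (92.8%). Of the 360 genes, 267 had a member in 1 list pair and 14 in 4 or more.

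Gene lists drawn up for the hippocampus and for Polycomb targets are set beside that 2.65%. A member needs both marks, and among the 3990 genes with peaks of both marks in any list 353 had a member (8.85%). Among transcription factors of hippocampal excitatory neurons, 6 of 37 genes with an H4K8ac peak had a member (16.2%, with 13 carrying both marks), including Emx2 and Prox1. Among other developmental transcription factors these were 10 of 58 (17.2%, with 57 genes of the list carrying both marks), including Lhx9, Nr2f2 and Pax6, and among markers of the dentate gyrus and CA fields 5 of 26 (19.2%, with 16 carrying both marks), including Prox1, Nr4a2 and Mpped1. These lists share genes and are given without a test. Of activity-induced genes 1 of 33 had a member (Nr4a2), and of imprinted genes 2 of 40 (Htr2a and Zdbf2). None of 42 WNT, BMP, FGF and hedgehog ligands and antagonists with H4K8ac had one, and 30 of the list had peaks of both marks. In a list of this size the shares over all genes would also give few members. None of 9 neuronal reference genes, 9 astrocyte markers, 7 oligodendrocyte lineage markers and 2 clustered protocadherins had one, and no Hox gene had an H4K8ac peak. Adarb2 among 11 interneuron markers, C1qa among 8 microglial markers and Vwf among 4 endothelial markers had members, of which C1qa was 157 bp at an edge in exercised SIT.

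Prox1, which specifies dentate granule cells, had 9 members at 8 places in 4 list pairs, of which 7 were inside H3K27me3. The 1 place shared by list pairs lay 102925 bp upstream of the start in exercised SIT, where 2138 bp were overlapped, and was overlapped by 1108 bp in sedentary SIT. The other members were a 980 bp peak in exercised SIT, 1168, 903 and 67 bp overlaps in sedentary left, and 1378, 1240 and 1108 bp overlaps in sedentary right, spread from 83185 bp downstream to 68119 bp upstream of the start. Col3a1, like Prox1 among 10 genes with H4K8ac that the study named on these samples, had 1 member of 773 bp in exercised SIT, so that list is not independent evidence.

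Members at further genes of the transcription factor and hippocampal marker lists lay inside H3K27me3 or at its edge. Nr4a2, an activity-induced nuclear receptor, had a distal H4K8ac peak wholly inside H3K27me3 in exercised SIT (2316 bp) and another in sedentary left (1973 bp), at different positions. Pax6 had 1041 bp in sedentary left inside an H3K27me3 peak of 45225 bp. Lhx9, a LIM homeobox gene, had 6 members at 5 places in exercised SIT, sedentary left and sedentary right, from 145 to 2863 bp, and 5 of its 6 contacts were at an edge. Mpped1 had 1250 bp in exercised SIT, inside an H3K27me3 peak of 27050 bp, and 1253 bp at an edge in sedentary right.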

How the data were processed

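Peak lists of H4K8ac and H3K27me3 CUT&RUN libraries (60 samples, of which 20 IgG libraries are not analysed here) were used as deposited. Per the labels and the methods, the authors aligned reads with Bowtie2 (version 2.4.1), used the stringent mode of SEACR for peak calling and annotated peaks with ChIPseeker (version 1.8.6) on mm10. How libraries were combined into a list is not given in the sources used here. Per the file headers, the deposited columns are positions, widths and distances to start sites in bp, with no counts, signal or p-values, so depth is unknown. One listed start is 0, so starts may be 1 base early. Of 31151 assigned transcripts, 99.0% were found in GENCODE M21 at the same positions.

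Overlaps, CpG ratios and merged places were computed in Python 3.11.15 with pandas 2.3.3 and scipy 1.17.1, and the overlap code was tested on 50 simulated sets. Exact two-sided sign-flip tests ran over the 6 list pairs, with Benjamini-Hochberg adjustment over 5 tests. They measure spread between pooled lists only. Named were places in 3 or more list pairs (at most 20, by number of list pairs and then overlap), the 3 longest overlaps and the members and non-members nearest the rule per list pair, and up to 3 members per gene list. Members, 15 gene lists and tests were chosen with earlier results of these data known. Some of the genes that the rule names, and some stretches of sequence, are not reported here.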

Additional observations from a re-analysis of the deposited data

Results flagged for a closer look

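The exercised minus sedentary difference in the share of H4K8ac peaks that overlap H3K27me3 had opposite signs between isolations. It was 0.446 percentage points by simultaneous isolation, but -0.0882 points for left hippocampi and -0.396 points for right ones. The difference between isolations was not tested, since each isolation has 1 pooled list per mark and condition.

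Among 8 measures compared over the 6 list pairs, 1 list pair stood apart from the others by Dixon's gap test. The CpG ratio of members exceeded that of other H4K8ac peaks by 0.211 in exercised right, which had 16 members. Chance sets a list pair apart in about 1 of 20 such measures.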

How the results depend on the processing

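Each of 6 differences was recomputed with an overlap of at least 100 bp, at least 50% of the H4K8ac peak, the widest 50% of H3K27me3 peaks, chromosomes 1 to 19 and without each isolation, and some with further settings. Of 61 values, 56 kept their direction and side of the threshold. With the widest 50% of H3K27me3 peaks, the exercised minus sedentary difference in share was 0.0117 percentage points, and leaving out 1 isolation (leave-one-out) gave -0.242 to 0.179 points, so this mean has no stable sign. Against other H4K8ac peaks of the same width quartile, the promoter difference was 24.3 points and the found-again difference -10.2 points. Both had adjusted p = 0.0391 in the exact sign-flip test, below the threshold. The p of the promoter test itself was 0.03125 in both fits (exact sign-flip test). Its adjusted p moved because the p of the found-again test went from 0.0625 to 0.03125. Since the found-again values are reciprocal pairs and not independent, that p is too small, and neither adjusted p is counted as a pass. Without an isolation, 4 list pairs remain and no test can reach the threshold.

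Taking 1 member per gene, or list pairs with 20 or more members, was chosen after seeing the data, and changed no direction. Of 48 shares per list pair, 25 left the interval of the reported value, mostly under the 50% rule, the 1000 bp distance and the share of bases, with values from 0.0405 to 1.17%. No paired analysis was possible because each peak list used here is pooled, so that no replicate could be matched or left out in it. Depth per list is unknown, and an absent peak may be an undetected one.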
